A study of Mus musculus with 66 samples.

Results

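Muscle cells carry a small set of miRNAs, which appear in plasma when muscle or heart contents reach the blood. The set described here holds 8 mature miRNAs of striated muscle, chosen by name: mmu-miR-1a-3p, mmu-miR-133a-3p, mmu-miR-133a-5p, mmu-miR-133b-3p, mmu-miR-206-3p, mmu-miR-208a-3p, mmu-miR-208b-3p and mmu-miR-499-5p, written from here on without the mouse prefix. All 8 were present among the 1826 miRNAs of the C3H table and among the 1885 miRNAs of the F2 table. They were read as counts of unique molecular indexes (UMIs), tags that mark each captured molecule before amplification, in small RNA libraries of mouse plasma.

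The C3H mice were split by hepatocellular carcinoma, with 8 tumor-bearing (HCC) and 5 tumor-free (non-HCC) animals, all male, of the inbred C3H strain, labelled as sampled over 12 months after radiation. Their blood was taken at necropsy by cardiac puncture, in which a needle passes through heart muscle, and both groups share this. The study counts both spontaneous and radiation-induced tumors among the HCC mice, and the labels do not say which mouse had which. The F2 libraries came from second generation offspring of BALB/c females and C3H males. These mice were 7 females and 8 males, irradiated and bled repeatedly from the tail vein. The labels give months 1, 6, 12 and 18 and the days left until HCC detection. All 15 mice were later found to carry HCC, and all 53 samples were taken before its detection. The 53 columns of the F2 table do not name a mouse or a time, so they are 53 libraries of 15 mice in 1 group, described without a test.

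MiRNAs pair with messenger RNAs mainly through the seed, bases 2 to 8 from the 5′ end, and lower their translation or stability. miR-1a and miR-133a are made in all striated muscle, skeletal and cardiac, from the same primary transcripts. miR-206 and miR-133b come from a shared locus used in skeletal muscle and not in the adult heart. miR-208a, miR-208b and miR-499 sit inside myosin heavy chain genes, which set contraction speed, and are made with their hosts: miR-208a with the fast myosin of the adult mouse ventricle, miR-208b with the slow myosin of slow skeletal fibers and of the fetal heart, and miR-499 in both the heart and slow fibers.

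Gene positions are those of GENCODE M21 on GRCm38, the build the study aligned to. Mir208a lies at chr14:54949060-54949142 in an intron of Myh6 and Mir208b at chr14:54975700-54975776 in an intron of Myh7, both on the minus strand, like their hosts. Mir499 lies at chr2:155622880-155622958 in an intron of Myh7b, on the plus strand. Mir206, at chr1:20679010-20679082, and Mir133b, at chr1:20682769-20682887, both overlap exons of the long non-coding RNA gene Gm28653 on the plus strand. Mir1a-1 is at chr2:180389048-180389124 and Mir133a-2 at chr2:180398379-180398482, with no overlapping gene in the annotation. Each of these last 2 genes has a further copy on another chromosome, so that UMIs of miR-1a-3p and miR-133a cannot be tied to 1 locus.

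RefSeq (GRCm38.p6) gave a mature sequence for 5 of the 8 miRNAs. They are the ones that separate heart, slow and skeletal sources, and are shown 5′ to 3′ with the seed in capitals to make plain which of them could be mistaken for each other in counting.
miR-208a-3p: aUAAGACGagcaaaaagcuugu
miR-208b-3p: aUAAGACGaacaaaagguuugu
miR-499-5p: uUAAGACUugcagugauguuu
miR-206-3p: uGGAAUGUaaggaagugugugg
miR-133b-3p: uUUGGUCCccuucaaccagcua

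miR-208a-3p and miR-208b-3p share the seed and differ at 3 of 22 positions, G10A, A16G and C18U, counted from the 5′ end with the base of miR-208a-3p first. miR-499-5p keeps all but the last base of that seed, G8U on the same count. Over its whole length miR-499-5p differs from miR-208a-3p at 9 of 21 positions. miR-133b-3p is nearly the same as miR-133a-3p, and the split of their UMIs rests on how the study assigned reads, so their ratio is uncertain.

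C3H libraries held 9513136 to 14247488 miRNA UMIs and F2 libraries 205194 to 3020311. In both tables the lowest value above 0 was 10, so a 0 is read as fewer than 10 UMIs. In 2 cases a pair of C3H libraries was unusually alike, HCC 2 with HCC 5 and HCC 3 with HCC 7: over miRNAs of 50 to 500 UMIs in the pair, the chi-square per miRNA was 1.93 and 2.10, against 4.66 for the next closest pair and near unity for counting noise alone. They were kept as separate mice, and results that change when each pair is averaged or summed are given with that value. HCC 2 and HCC 5 also had the lowest counts of the UniSP2 spike-in, 175009 and 165794, against 285564 to 938898 in the other mice, so that values scaled to the spike-ins are raised in these 2 mice together.

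The muscle miRNAs made up between 0.0407% and 1.53% of the miRNA UMIs of a C3H mouse. The highest share was that of HCC 4 at 1.53% (Wilson 95% interval 1.52 to 1.54%, covering counting error only), and the lowest were HCC 6 at 0.0407% (0.0395 to 0.0420%) and HCC 1 at 0.0440% (0.0427 to 0.0453%). The non-HCC mice lay between 0.0783% and 0.385%. The HCC mice therefore reached both above and below all non-HCC mice, and the intervals are far narrower than these gaps.

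The first comparison asked whether muscle miRNAs differed between HCC and non-HCC mice. Levels are log2 of the UMI count plus 1, divided by the mouse's mean spike-in count relative to the geometric mean over the mice. In edgeR's quasi-likelihood test over 1452 miRNAs, 0 of the 8 muscle miRNAs passed a Benjamini-Hochberg adjusted p of 0.05, where 7.51% of all miRNAs tested were called higher in HCC and 0% lower. Without adjustment 2 of the 8 had a p under 0.05, miR-133a-5p and miR-208b-3p, where 283 of the 1452 miRNAs tested, or 19.5%, did. DESeq2 called 1 of the 8 with its own size factors, where it called 14.9% of all, and 2 with spike-in size factors, where it called 12.5%. All 8 were above 0 in all 13 mice and passed the filter on low counts. The log2 fold change fitted by edgeR was above 0 for all 8, with a median of 1.49 beside 0.78 over all miRNAs tested. With TMM factors, which scale the libraries without the spike-ins, these medians were 0.44 and 0.17. Without HCC 4, 2 of the 8 were below 0 and the medians were 0.97 and 0.60. With limma the medians were 0.43 and 0.48, and 2 of the 8 were below 0. DESeq2 had 1 of the 8 below 0 with its own size factors and 2 with spike-in size factors. With any 1 mouse left out edgeR called 0 of the 8, and of the other edgeR and limma settings tried, only the one with similar HCC libraries summed made a call, of miR-208b-3p, with 7.79% of all miRNAs called. Apart from miR-208b-3p, described further on, the adjusted p-values in edgeR were 0.236 for miR-133a-5p to 0.720 for miR-208a-3p.

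**Figure D1:**
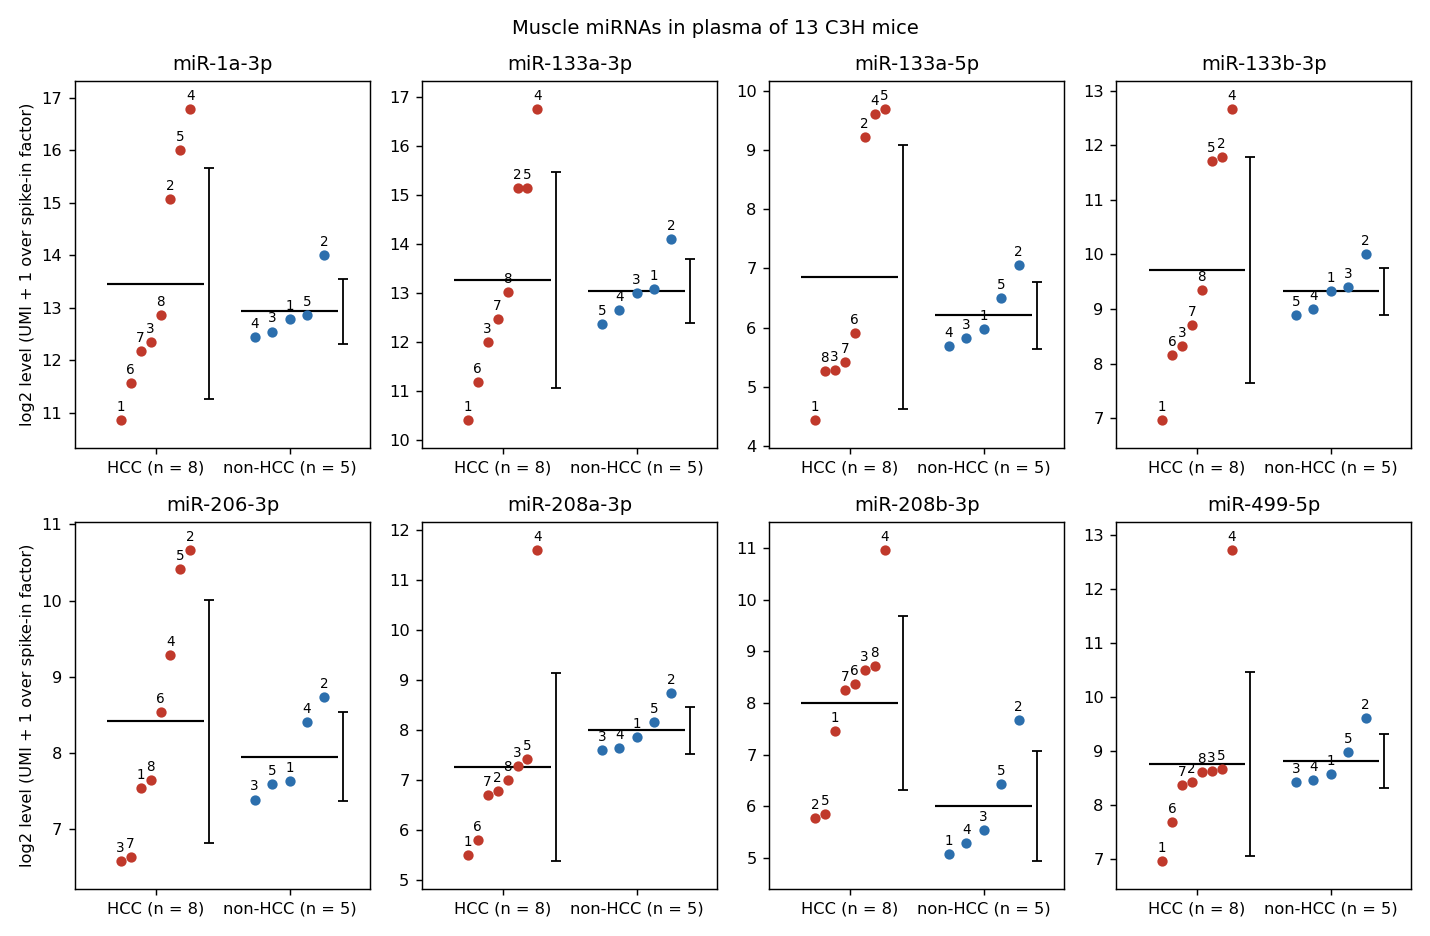
Each panel plots the log2 level of 1 muscle miRNA (vertical axis, UMI + 1 over the spike-in factor) in the 8 HCC mice (red) and the 5 non-HCC mice (blue), labelled with the mouse number; black lines are means and error bars SDs. HCC mouse 4 is highest for miR-1a-3p (16.79), miR-208a-3p (11.60), miR-208b-3p (10.97) and miR-499-5p (12.73), while HCC mice 1 and 6 lie low in most panels.

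Among the miRNAs of striated muscle in general, miR-1a-3p, which represses genes of early muscle growth, was counted at 1807 to 89558 UMIs in the HCC group and 5670 to 23812 in the non-HCC group. Its log2 level had a lowest value of 10.86, a median of 12.60 and a highest of 16.79 in the HCC mice, and it was 12.79, 14.01, 12.55, 12.45 and 12.86 in non-HCC mice 1 to 5. HCC mice 2, 4 and 5 exceeded every non-HCC mouse, and 4 HCC mice were under every one. The group means were 13.46 ± 2.20 (SD, n = 8) and 12.93 ± 0.63 (SD, n = 5), and the difference of 0.53 did not exceed the spread of the mice (two-sided exact permutation over 1287 splits, p = 0.614).

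The HCC mice spanned a 60.9-fold range in miR-1a-3p and the non-HCC mice a 2.95-fold range. The same contrast held in size for miR-133a-3p, a partner of miR-1a that acts on muscle cell division, with 80.9-fold and 3.31-fold. miR-208a-3p spanned 69.0-fold and 2.19-fold on the spike-in scale, but HCC 4 set most of this, and without it the HCC range was 3.78-fold. miR-206-3p spanned 16.9-fold and 2.54-fold on the spike-in scale, a contrast that turned in CPM (counts per 1000000 miRNA UMIs of the library), where it was 2.54-fold with HCC and 4.23-fold without. The HCC range was the wider for all 8 miRNAs on the spike-in scale and for 7 of 8 in CPM, with or without HCC 4. The spreads of the 2 groups were not tested against each other.

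miR-133a-3p had log2 levels of 10.41 to 16.75 with HCC, with a median of 12.74, and 12.36 to 14.09 without. The means were 13.26 ± 2.20 (SD, n = 8) and 13.04 ± 0.66 (SD, n = 5), with an exact permutation p of 0.831. The other arm of its hairpin, miR-133a-5p, was far scarcer, at 24 to 615 UMIs with HCC and 63 to 191 without. Its levels were 6.85 ± 2.24 (SD, n = 8) and 6.21 ± 0.57 (SD, n = 5), again without a difference beyond the spread (exact permutation p = 0.528).

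Neither skeletal member differed between the groups beyond the spread of the mice. miR-133b-3p was at 9.71 ± 2.07 (SD, n = 8) with HCC against 9.32 ± 0.43 (SD, n = 5) without (exact permutation p = 0.684). miR-206-3p, which promotes muscle repair and the rebuilding of nerve contacts, was at 8.42 ± 1.59 (SD, n = 8) and 7.95 ± 0.58 (SD, n = 5), with p = 0.553 in the exact permutation test. It was counted at 175 to 595 UMIs in HCC mice and 303, 616, 222, 422 and 146 UMIs in non-HCC mice 1 to 5. HCC mice 2, 5 and 4 were the highest at log2 levels of 10.67, 10.42 and 9.29, and HCC mice 3 and 7 the lowest at 6.59 and 6.63, below every non-HCC mouse.

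miR-208a-3p, the heart member, was counted at 51, 39, 283, 2460, 58, 32, 203 and 182 UMIs in HCC mice 1 to 8 and at 351, 612, 256, 245 and 216 UMIs in non-HCC mice 1 to 5. In spike-in-scaled level, 7 of the 8 HCC mice lay below all 5 non-HCC mice and HCC 4 lay above them all. In CPM, HCC 3, 7 and 8, at 27.1, 17.2 and 19.1, lay inside the 15.5 to 44.1 of the non-HCC mice. The mean levels were 7.25 ± 1.88 (SD, n = 8) and 7.99 ± 0.47 (SD, n = 5), a difference of -0.74 (exact permutation p = 0.460). In CPM the log2 difference was -1.09 (exact permutation p = 0.271). Without HCC 4 the difference on the spike-in scale was -1.36 (exact permutation p = 0.00379), 1 of 13 values with 1 mouse left out and the only one of them past the threshold. The direction differed between tests. The edgeR log2 fold change was 0.86 (standard error 0.91, adjusted p = 0.720) with all mice and -1.30 (adjusted p = 0.189) without HCC 4, and under DESeq2 scaled to the spike-ins it was -1.19 (adjusted p = 0.0442). DESeq2 ran with its default replacement of outlying counts, and whether the count of HCC 4 was replaced was not recorded. Its value is therefore not read as a separate result beside edgeR without HCC 4.

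miR-499-5p, the member of heart and slow fibers, followed miR-208a-3p closely. It was counted at 143, 124, 725, 5369, 140, 121, 645 and 558 UMIs in HCC mice 1 to 8 and at 584, 1133, 456, 437 and 383 UMIs in non-HCC mice 1 to 5. HCC 4 stood alone above the rest, and HCC 1 and HCC 6 were lowest in log2 level, at 6.96 and 7.67. The means were nearly equal, 8.76 ± 1.71 (SD, n = 8) and 8.81 ± 0.50 (SD, n = 5), with an exact permutation p of 0.965. Here too edgeR's fitted log2 fold change turned from 1.24 to -0.60 without HCC 4.

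miR-208b-3p, the slow and fetal-type member, had the highest fitted log2 fold change of the 8. It was counted at 202, 19, 726, 1587, 19, 196, 596 and 602 UMIs in HCC mice 1 to 8 and at 51, 294, 61, 48 and 65 UMIs in non-HCC mice 1 to 5. HCC 3, 4, 6, 7 and 8 were above all non-HCC mice in log2 level, HCC 1 was above all but non-HCC 2, and HCC 2 and HCC 5 lay among the non-HCC mice. The means were 8.00 ± 1.68 (SD, n = 8) and 6.01 ± 1.06 (SD, n = 5).

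The difference in miR-208b-3p, 1.99 on the log2 scale, had an exact permutation p of 0.0334, 1 of 8 such tests, not adjusted. It missed the threshold across all miRNAs in edgeR, at a log2 fold change of 2.52 (standard error 0.85, adjusted p = 0.0708). That value was 1.61 without HCC 4 (adjusted p = 0.224 in edgeR). It passed in DESeq2 with its own size factors (adjusted p = 0.0147), in DESeq2 scaled to the spike-ins (adjusted p = 0.0106) and in edgeR with the similar libraries summed (adjusted p = 0.0468). Scaled to CPM, the difference was 1.63 with an exact permutation p of 0.204. It also missed the threshold when HCC 3, 6, 7 or 8 or non-HCC 1, 3 or 4 was left out, at exact permutation p-values of 0.0530 to 0.0808.

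Levels of other cell types moved with some of these mice. In HCC 4 the summed level of 2 endothelial miRNAs, miR-126a-3p and miR-126a-5p, was 18.51 on the log2 scale, and in the other 12 mice 14.64 to 17.21. Its 6 red cell miRNAs were at 21.83 and its 5 liver miRNAs at 21.38, both inside the range of the other HCC mice. HCC 2 and HCC 5 had the highest liver levels, 23.76 and 23.79, the highest red cell levels, 22.89 and 22.95, and the highest levels of 4 smooth muscle miRNAs, 17.13 and 17.35. These levels are scaled to the spike-ins, whose low counts raise both mice, so the ranks are not read as larger shares of the library. In CPM the red cell list ran from 66890 to 394687 with HCC and from 365060 to 389444 without. Over the groups, the liver level was 17.85 to 23.79 with HCC and 16.09 to 17.54 without (exact permutation p = 0.00311), the red cell level 19.38 to 22.95 and 21.40 to 22.71 (exact permutation p = 0.320), and the smooth muscle level 12.53 to 17.35 and 13.57 to 15.03 (exact permutation p = 0.288). The part of these cells in the muscle values was not tested. In plasma, more cells shedding a miRNA and more miRNA shed per cell cannot be told apart.

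Ratios between 2 muscle miRNAs within a library need no scaling between libraries. They can still vary with depth where the UMIs of 1 of the 2 do not rise with it. Each is a ratio of UMIs plus 1, and since miRNAs are captured with unequal efficiency it is read between mice and not as a ratio of molecules. Of the 9 ratios tested by exact permutation between HCC and non-HCC mice, 1 passed after Benjamini-Hochberg adjustment over the 9.

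That ratio was miR-208a-3p to miR-208b-3p, by name the heart member over the slow and fetal-type member. The tissue that gave the miR-208b-3p of these plasma samples was not tested. In HCC mice 1 to 8 it was 0.256, 2.00, 0.391, 1.55, 2.95, 0.168, 0.342 and 0.303, and in non-HCC mice 1 to 5 it was 6.77, 2.08, 4.15, 5.02 and 3.29. miR-208b-3p thus exceeded miR-208a-3p in 5 of 8 HCC mice and in 0 of 5 non-HCC mice. Those 5 HCC mice, 1, 3, 6, 7 and 8, had the shallowest HCC libraries. They held 9513136 to 11825706 miRNA UMIs, against 12572301 to 14247488 in HCC 2, 4 and 5. Non-HCC 1 and 3 were also shallow, at 10909469 and 10467560, with ratios of 6.77 and 4.15. The part of depth in this ratio was not tested. The mean log2 ratio was -0.75 ± 1.56 (SD, n = 8) with HCC against 1.98 ± 0.64 (SD, n = 5) without, and 7 of the 8 HCC mice lay below every non-HCC mouse. The difference was -2.73 (exact permutation p = 0.00389, adjusted p = 0.0350). It did not stand on every mouse: it missed the threshold when HCC 1, 3, 6, 7 or 8 or any 1 non-HCC mouse was left out (adjusted exact permutation p of 0.0818 to 0.127) and with the similar libraries averaged (adjusted p = 0.0877 in the exact permutation test), each time with the same sign.

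**Figure D2:**
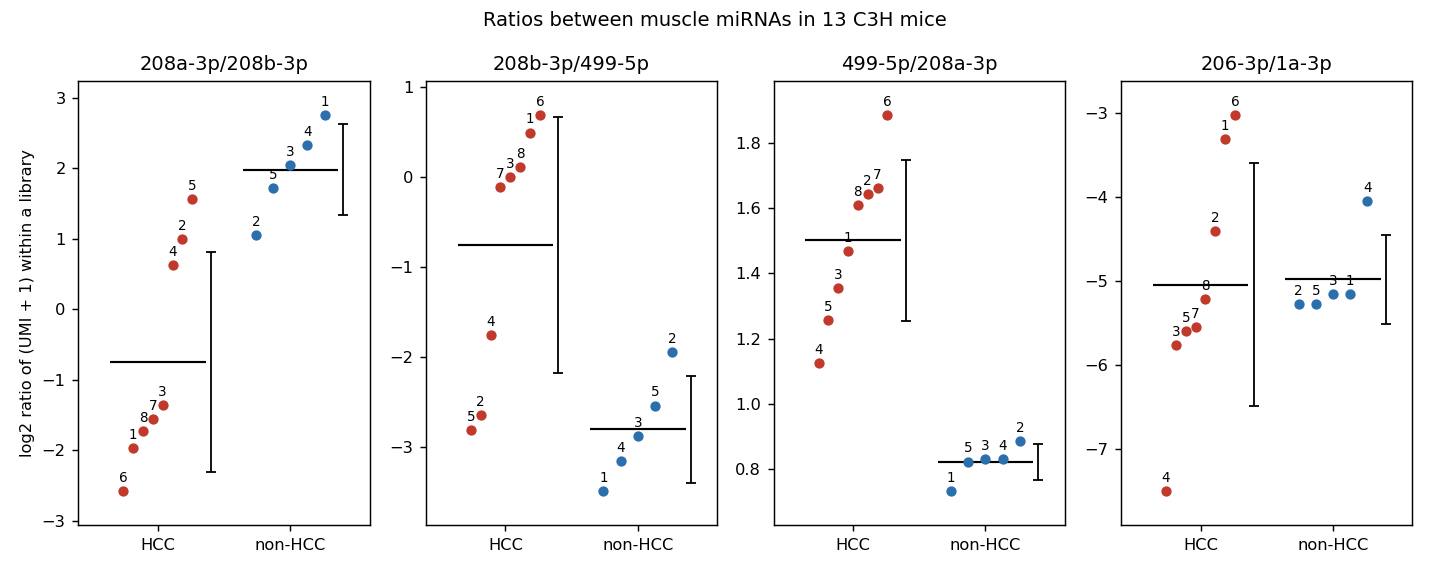
The panels show log2 ratios of UMIs plus 1 within a library (vertical axis) for 4 pairs of muscle miRNAs in HCC mice (red) and non-HCC mice (blue), with mouse numbers, means as black lines and SDs as error bars. The ratio of miR-208a-3p to miR-208b-3p is below 0 in HCC mice 1, 3, 6, 7 and 8 and above 0 in the remaining mice, and HCC mouse 4 has the lowest ratio of miR-206-3p to miR-1a-3p at -7.50.

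miR-208b-3p to miR-499-5p gave the same division of mice. Both ratios hold miR-208b-3p, and miR-499-5p followed miR-208a-3p closely, so this is not a separate result. The mean log2 ratio was -0.75 ± 1.42 (SD, n = 8) with HCC against -2.80 ± 0.60 (SD, n = 5) without, a difference of 2.05 that missed the threshold (exact permutation p = 0.0186, adjusted p = 0.0839). HCC 1, 3, 6, 7 and 8 lay at linear ratios of 0.924 to 1.61, and all other mice at 0.0889 to 0.296.

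miR-499-5p to miR-208a-3p was looked at after the values were seen and carries no test. It was 2.77, 3.13, 2.56, 2.18, 2.39, 3.70, 3.17 and 3.05 in HCC mice 1 to 8 and 1.66, 1.85, 1.78, 1.78 and 1.77 in non-HCC mice 1 to 5, so that the groups did not overlap and the non-HCC mice were nearly equal. It was the only 1 of the 28 ratios among the 8 miRNAs whose groups did not overlap. Among the ratios of any 2 of the 699 miRNAs above 0 in all mice, 10.7% had groups that did not overlap, so a separation of this kind was common across the table.

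Within the skeletal and striated members the ratios differed little between groups. miR-133a-3p to miR-1a-3p was -0.20 ± 0.38 (SD, n = 8) on the log2 scale with HCC against 0.11 ± 0.36 (SD, n = 5) without, and miR-133b-3p to miR-133a-3p was -3.55 ± 0.32 (SD, n = 8) and -3.71 ± 0.24 (SD, n = 5). Both pairs stayed within 1.32 and 1.06 log2 units over all 13 mice, a narrow band beside the 5.34 units of miR-208a-3p to miR-208b-3p. miR-206-3p to miR-1a-3p had nearly equal group means, -5.04 ± 1.45 (SD, n = 8) and -4.98 ± 0.53 (SD, n = 5), with an adjusted exact permutation p of 0.934, but ran from 0.00553 in HCC 4 to 0.123 in HCC 6 as a linear ratio.

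Single mice held different mixes of these miRNAs. HCC 4 had the most miR-1a-3p, with miR-499-5p to miR-1a-3p at 0.0600, inside the 0.0476 to 0.0760 of all mice but HCC 2 and HCC 5, and with the lowest miR-206-3p to miR-1a-3p. HCC 2 and HCC 5 also had much miR-1a-3p for their spike-ins, with log2 levels of 15.07 and 16.01, but their miR-499-5p to miR-1a-3p was 0.00993 and 0.00614, and their miR-208a-3p was 2.74 and 4.15 CPM. HCC 1 and HCC 6 were as low in miR-208a-3p, at 4.99 and 3.29 CPM, beside 15.5 to 44.1 CPM in non-HCC mice. HCC 1 and HCC 6 had the least miR-1a-3p, at 210 and 186 CPM, with the highest miR-206-3p to miR-1a-3p at 0.101 and 0.123. In CPM, the miR-1a-3p of HCC 2, at 883, and of HCC 5, at 1642, was inside the 406 to 1717 of non-HCC mice, whereas the ratios do not depend on the scale.

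The next comparison was of the miRNAs with each other, over the 13 C3H mice. Of the 28 pairs, 18 had a Pearson correlation of log2 levels past a Benjamini-Hochberg adjusted permutation p of 0.05, and a shared spike-in scale lifts all miRNAs of a mouse together. On the CPM scale there were 14 pairs, with TMM factors 15, and without HCC 4 there were 11. Values within the 8 HCC mice stand beside the pooled ones for the pairs described, since the 5 non-HCC mice are too few for a value of their own.

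miR-1a-3p, miR-133a-3p, miR-133a-5p and miR-133b-3p moved as a block, with r of 0.90 to 0.99 over their 6 pairs on the spike-in scale, 0.85 to 0.99 in CPM and 0.92 to 0.99 within the HCC mice. For miR-1a-3p with miR-133a-3p, r was 0.97 and Spearman's rho 0.90 (permutation over 13 mice, p = 1e-05, the smallest these resamples can give, and p = 7e-05, with adjusted p-values of 4.67e-05 and 0.000653), and r was 0.97 without the 2 mice farthest from the median. Both come from the same primary transcripts. miR-133b-3p, made from another locus, correlated with miR-133a-3p at r = 0.99, which cannot be told apart from reads shared between 2 nearly equal sequences.

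miR-208a-3p and miR-499-5p formed a second close pair. Over the 13 mice r was 0.97 and rho 0.85 (permutation p = 1e-05 and p = 0.00044, adjusted p-values 4.67e-05 and 0.00308), and within the 8 HCC mice r was 0.995. The relation was not carried by HCC 4, since r was 0.93 without it, and it was 0.90 without the 2 mice farthest from the median. Their genes lie on chromosomes 14 and 2, in separate myosin genes.

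miR-206-3p followed the block less closely, with r of 0.69 with miR-133a-3p, 0.77 with miR-133b-3p and 0.87 with miR-133a-5p. The last is near the lowest value within the block, 0.90. In CPM these 3 values were 0.55, 0.58 and 0.60. With miR-1a-3p r was 0.75 and rho 0.69 (permutation p = 0.00424 and p = 0.0114, adjusted p-values 0.00848 and 0.0280), and 0.54 in CPM, where the adjusted permutation p was 0.0810. Within the 8 HCC mice r was 0.75 on the spike-in scale. With the heart member miR-208a-3p it reached only 0.22 (permutation p = 0.476, adjusted p = 0.580) and with miR-499-5p 0.27 (permutation p = 0.369, adjusted p = 0.470), and both were 0.26 within the HCC mice.

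miR-208b-3p passed with 0 of the other 7 members on the spike-in scale, with r from -0.15 to 0.53. With miR-208a-3p, its neighbor in the genome, r was 0.35 and rho -0.13 (permutation p = 0.235 and p = 0.682, adjusted p-values 0.314 and 0.796). For this pair r was 0.62 within the 8 HCC mice and -0.37 over all mice without HCC 4, while in CPM r was 0.56 and rho 0.60 (permutation p = 0.0447 and p = 0.0332, adjusted p-values 0.0737 and 0.0651). With miR-499-5p r was 0.53 and rho 0.24 (permutation p = 0.0612 and p = 0.436, adjusted p-values 0.0857 and 0.573). That last pair depended on the scale, since in CPM r was 0.70 and rho 0.82 (adjusted permutation p-values 0.0174 and 0.00523). Without HCC 4 r was -0.12 on the spike-in scale, but in CPM r was 0.60 and rho 0.77. Within the 8 HCC mice r with miR-499-5p was 0.65, and 0.01 without the 2 mice farthest from the median.

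**Figure D3:**
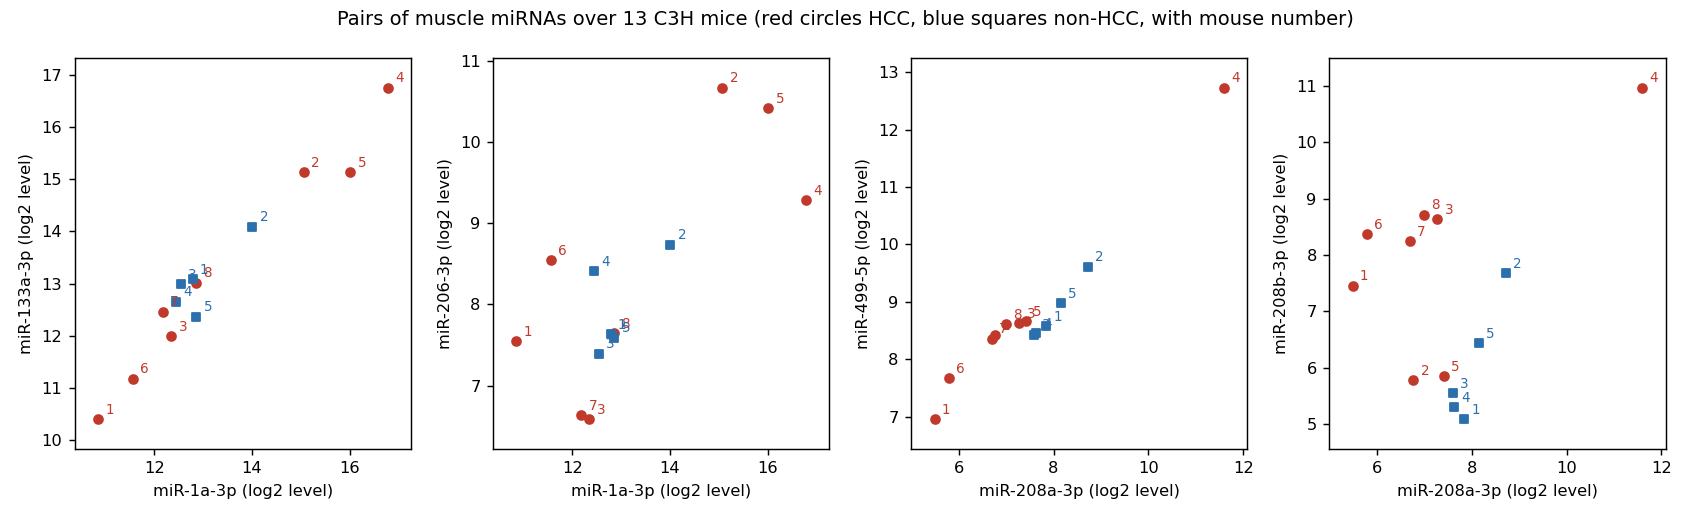
Each panel plots the log2 level of 1 muscle miRNA against another in the 13 C3H mice, HCC as red circles and non-HCC as blue squares with mouse numbers. miR-133a-3p follows miR-1a-3p (r = 0.97) and miR-499-5p follows miR-208a-3p (r = 0.97), whereas HCC mice 1, 3, 6, 7 and 8 lie above the other mice in miR-208b-3p for their miR-208a-3p (r = 0.35).

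All 10 of the other arms and near copies searched for were listed in the C3H table, and all but miR-1b-5p and miR-1a-1-5p stayed at or below 51 UMIs. miR-1b-5p, a product of the antisense strand of a miR-1a gene, was the most abundant, at 298 to 12316 UMIs with HCC and 801 to 3458 without, and miR-1a-1-5p, the other arm of miR-1a-1, had 13 to 488 and 42 to 130. Over the 13 mice and in CPM both followed miR-1a-3p, at r = 0.99 and r = 0.98. miR-208a-5p reached at most 51 UMIs and was listed in 7 of 13 mice, and miR-208b-5p at most 25 UMIs in 5 of 13 mice. Of the 10, 8 passed the filter and 0 passed the adjusted threshold in edgeR.

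By the correlation of log2 CPM over the 13 mice, among the miRNAs outside the set, the 3 nearest to miR-499-5p were miR-126a-5p (r = 0.89), miR-126b-5p (r = 0.88) and miR-126b-3p (r = 0.87), from a locus active in endothelium. For miR-126a-5p r was 0.77 without HCC 4. The nearest to miR-206-3p was miR-184-3p (r = 0.86), followed by miR-99a-5p (0.82), miR-125b-1-3p (0.81), miR-224-5p (0.81) and miR-125b-5p (0.80). Nearest to miR-208b-3p were miR-7063-3p (r = 0.91) and miR-129-5p (r = 0.90), with miR-503-3p (0.88), miR-212-3p (0.86) and miR-351-3p (0.86) next, and to miR-1a-3p, beside its own other products, miR-196a-5p (r = 0.86). These are the highest of 691 candidates over 13 points and are given as a description.

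The F2 libraries were shallower, with a median of 846338 miRNA UMIs. miR-1a-3p, miR-206-3p and miR-208b-3p were listed above 0 in all 53 libraries, at 14 to 5971, 17 to 5145 and 21 to 864 UMIs with medians of 52, 136 and 105. miR-133b-3p was listed at 0 in 1 library and miR-133a-3p in 2. miR-208a-3p and miR-499-5p were near the limit, with miR-208a-3p at 0 in 12 libraries and never above 35 UMIs, and miR-499-5p at 0 in 38 libraries and never above 28. The muscle miRNAs took 0.0136% to 1.56% of the UMIs of a library, with a median of 0.0628%.

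At this depth 10 UMIs stand for 3.31 to 48.7 CPM, with a median of 11.8, against 0.702 to 1.05 in the C3H libraries. Of the 38 F2 libraries with miR-499-5p listed at 0, 37 would have shown it at the median of the C3H mice, 43.6 CPM, but only 9 at the lowest C3H value of 8.70. For miR-208a-3p, whose C3H median was 18.1 CPM, the median floor of 11.8 CPM is not far below, and a 0 is read as not detectable at this depth.

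miR-206-3p took a larger share of the F2 libraries than of the C3H libraries, and miR-1a-3p a smaller one. miR-206-3p was at a median of 185 CPM in F2 libraries and 27.8 in C3H mice, and 52 of the 53 F2 libraries lay above the highest C3H mouse, 44.4 CPM. miR-1a-3p had medians of 75.4 and 883 CPM, and 38 of the 53 F2 libraries lay below the lowest C3H mouse. Between them, miR-206-3p exceeded miR-1a-3p in 37 of 53 F2 libraries and in 0 of 13 C3H mice, with median log2 ratios of 0.94 and -5.21 and no overlap, since the lowest F2 library was at -1.86 and the highest C3H mouse at -3.02. The lowest count listed fixes part of this: in 32 of the 53 libraries miR-206-3p at 10 UMIs would already have placed the ratio above all C3H mice, and the remaining 21, where the ratio could have been lower, were above them as well. For miR-133b-3p to miR-133a-3p, with a median of -0.66 in 51 F2 libraries and -3.65 in C3H mice, the floor alone places 40 libraries above all C3H mice, and the remaining 11 were above them too.

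miR-208b-3p was higher than miR-208a-3p in all 53 F2 libraries and higher than miR-1a-3p in 30 of them, whereas it exceeded miR-1a-3p in 0 of 13 C3H mice. Its ratio to miR-1a-3p lay above all C3H mice in 43 F2 libraries. In 32 libraries miR-208b-3p at 10 UMIs would already have placed the ratio there. Of the remaining 21, only 11 were above all C3H mice. The median of miR-208b-3p was 117 CPM in F2 libraries and 19.8 in C3H mice. Strain cross, sex, time of sampling, tail vein against cardiac puncture and sequencing depth all differ between F2 and C3H libraries. So does sampling before tumor detection against sampling at necropsy. These cannot be told apart, so no test was made between F2 and C3H libraries.

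**Figure D4:**
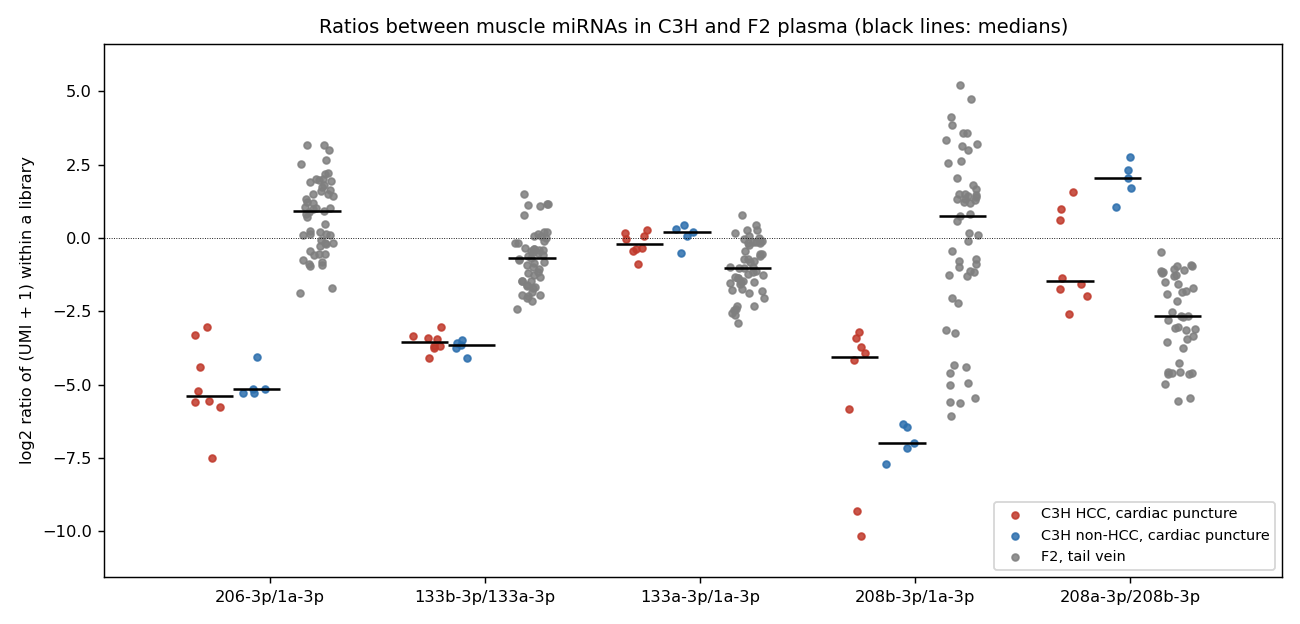
Log2 ratios of UMIs plus 1 within a library (vertical axis) for 5 pairs of muscle miRNAs in C3H HCC mice (red), C3H non-HCC mice (blue) and F2 libraries (grey), with medians as black lines; F2 libraries with either miRNA listed at 0 are left out. miR-206-3p to miR-1a-3p has a median of 0.94 in F2 libraries, where every one of 53 lies above all 13 C3H mice, 32 of them at any listed count of miR-206-3p.

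Over the 53 F2 libraries miR-206-3p went with miR-1a-3p. In CPM, r was 0.83 between miR-206-3p and miR-1a-3p, 0.86 between miR-1a-3p and miR-133a-3p, and 0.80 between miR-133a-3p and miR-206-3p. A total of 6 pairs, those among miR-1a-3p, miR-133a-3p, miR-133b-3p and miR-206-3p, were above 0.5, and the rest lay between -0.14 and 0.37. The library richest in miR-1a-3p, with 5971 UMIs, also had the most miR-206-3p, 5145, and 458 of miR-133b-3p. That library held 13 UMIs of miR-208a-3p, and 28 of miR-499-5p, the highest count of miR-499-5p in the 53 libraries. The correlations are descriptions, since the libraries share mice, and they carry no p.

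**Figure D5:**
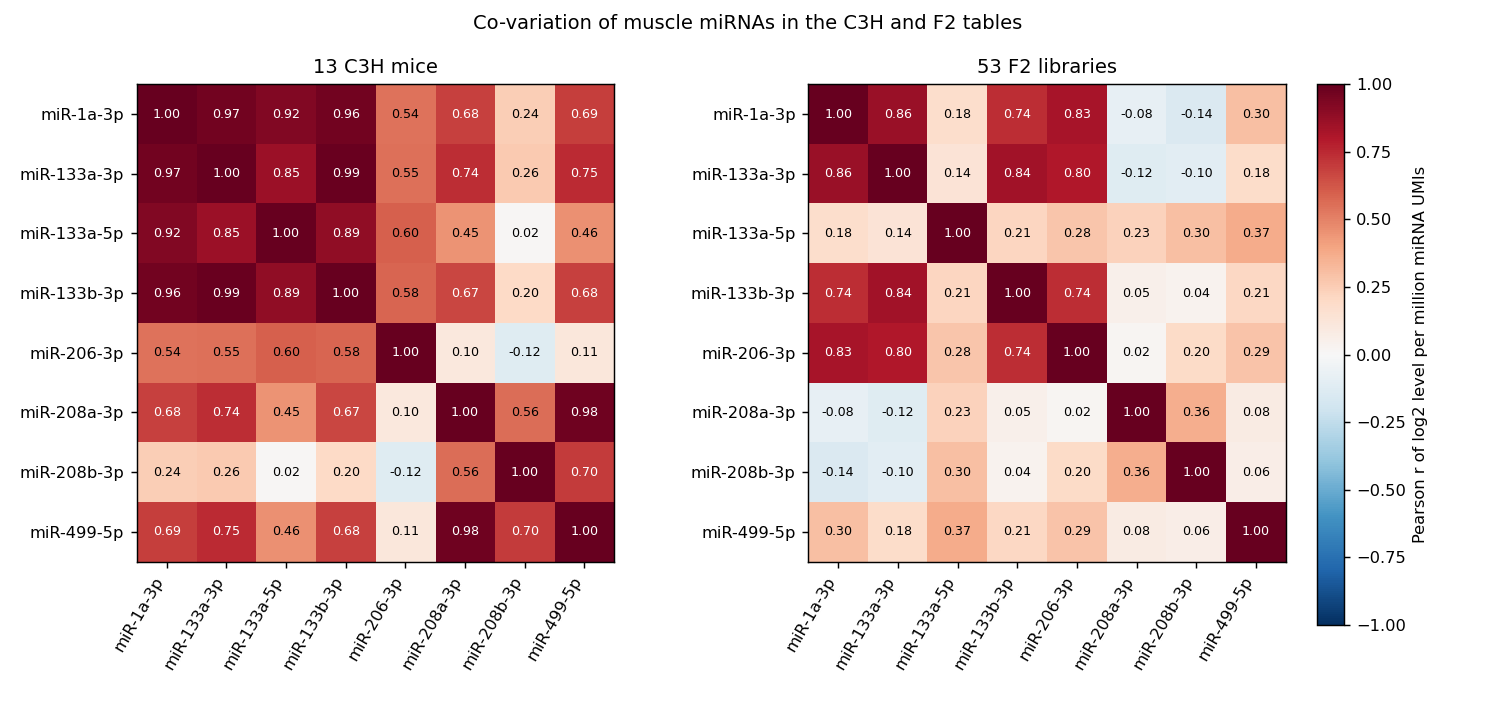
Pearson correlations of log2 CPM between the 8 muscle miRNAs over 13 C3H mice (left) and 53 F2 libraries (right), with the color scale from -1 to 1. miR-208a-3p and miR-499-5p go together in C3H mice (0.98) and not in F2 libraries (0.08), where miR-499-5p is listed at 0 in 38 libraries, and miR-206-3p follows miR-1a-3p more closely in F2 libraries (0.83) than in C3H mice (0.54).

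miR-208b-3p stood outside this group in the F2 libraries too, with r of -0.14 with miR-1a-3p and 0.20 with miR-206-3p. The miRNA nearest to it was miR-7039-5p, at r = 0.93 over 53 libraries, ahead of miR-7092-5p (0.81), miR-7b-5p (0.78), miR-1896 (0.77) and miR-496b (0.72). In the C3H mice r between miR-208b-3p and miR-7039-5p was 0.77. The mature sequence of miR-7039-5p (RefSeq, GRCm38.p6, chr5:144896790-144896811, minus strand) is shown with the seed in capitals. Compared position by position without gaps, it differs from miR-208b-3p at 16 of 22 positions, and the longest run of bases found in both is 3. Whether reads crossed between them was not tested.
miR-208b-3p: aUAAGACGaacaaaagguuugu
miR-7039-5p: aGAGGGAUggagagcaucgcgu

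The UMIs of both miRNAs did not rise with the depth of the libraries. Over the 53 F2 libraries Spearman's rho between UMIs and the total of all miRNA UMIs was -0.03 for miR-208b-3p and 0.09 for miR-7039-5p, beside 0.36 for miR-1a-3p and 0.34 for miR-206-3p. It was also low for the scarce miR-208a-3p (0.11), miR-133a-5p (0.13) and miR-499-5p (0.14), and was 0.27 for miR-133b-3p and 0.40 for miR-133a-3p. Over the 13 C3H mice rho was -0.53 for miR-208b-3p and -0.71 for miR-7039-5p, beside 0.46 for both miR-1a-3p and miR-206-3p. There it was 0.10 for miR-208a-3p and -0.09 for miR-499-5p, and 0.44, 0.49 and 0.68 for miR-133a-3p, miR-133b-3p and miR-133a-5p. The CPM of miR-208b-3p therefore went down with depth, at rho of -0.43 in F2 libraries, as did that of miR-208a-3p (-0.37) and miR-133b-3p (-0.35). For the other members rho was -0.18 to 0.02. The part of depth in the group difference of miR-208b-3p and of its ratios was not tested.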

How the data were processed

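Plasma small RNA of 13 C3H mice and of 53 F2 libraries was analysed. The authors screened plasma for hemolysis, added UniSP2 and UniSP4 before RNA isolation, aligned reads to GRCm38 (the submitters' processing notes name Bowtie2 and FastQC), annotated miRNAs by mirbase_20 and deposited raw UMI counts per miRNA, without normalization. C3H columns were assigned to mice by the mouse name in the labels. F2 columns match no label and were kept as 1 unlabelled group. The members and lists were chosen with earlier results of these data known.

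Groups were compared with edgeR 4.0.16 in R 4.3.3 (quasi-likelihood test, mean spike-in count as library size, at least 5 UMIs in at least 5 mice, Benjamini-Hochberg threshold 0.05). The filter acts as a minimum of 10 UMIs, the lowest value listed. Levels and ratios used a pseudocount of 1 UMI and exact permutation of the absolute difference over 1287 splits. Correlations used 100000 resamples (numpy 2.4.6, Python 3.11.15). Alternatives were TMM, each spike-in alone, limma 3.58.1, DESeq2 1.42.0, other filters and pseudocounts, a replicate block and each mouse left out. After the data were seen, averaging or summing similar libraries was added, as was leaving HCC mouse 4 out of the correlations. The edgeR and permutation code was tested on simulated data. The genes named were the 8 members, their other arms, the 5 most correlated miRNAs of miR-1a-3p, miR-206-3p, miR-208b-3p and miR-499-5p in each table, and lists for smooth muscle, endothelium, red cells, platelets and leukocytes, and liver. The platelet and leukocyte list (4 miRNAs) had summed log2 levels of 16.12 to 18.73 with HCC and 17.33 to 19.60 without (exact permutation p = 0.193). In CPM the list ran from 9949 to 16611 with HCC and from 20918 to 43470 without, ranges that do not overlap. The difference in CPM was not tested. Intervals cover counting error only.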

Additional observations from a re-analysis of the deposited data

Results flagged for a closer look

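A mouse was marked when its gap to the next of its group exceeded a fixed share of the group's range, in 34 groups of levels and ratios, where chance alone marks about 1 group in 20. HCC 4 stood apart in miR-208a-3p, at a log2 level of 11.60 against 7.41 in the next HCC mouse, and in miR-499-5p, at 12.73 against 8.67. Its endothelial miRNAs were also the highest of the 13 mice, and the part of either source was not tested. Non-HCC 2 stood apart in miR-1a-3p, at 14.01 where the next non-HCC mouse had 12.86. In log2 ratios, non-HCC 5 was high in miR-133a-5p to miR-133a-3p, at -5.86 against -6.97, and non-HCC 4 in miR-206-3p to miR-1a-3p, at -4.04 against -5.15.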

How the results depend on the processing

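Of the 1452 miRNAs, 109 were called in the main comparison, 44 with limma, 217 with DESeq2 and its own size factors, 181 with spike-in size factors, 145 with the replicate block, and 44 to 157 without 1 mouse (44, 47, 47 and 53 without non-HCC 1 to 4 and 65 without HCC 2). Of the 8 muscle miRNAs, 0 were called, 1 with DESeq2's own size factors, 2 with its spike-in size factors, 1 with similar libraries summed, 0 with the block, and 0 without any 1 mouse. The numbers that the labels give HCC and non-HCC mice do not pair them: the correlation of deviations was -0.05 to 0.21, and 1 of 5 non-HCC mice correlated best with its own number. By exact permutation 1 of the 8 levels passed, 0 in CPM, 0 with TMM and 0 to 2 without 1 mouse, and 1 ratio passed, 2 with a pseudocount of 10, 0 with similar libraries averaged and 0 to 2 without 1 mouse. Of the correlations 18 passed and 11 without HCC 4.

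The edgeR value of miR-208b-3p was 1.77 with the block and 1.61 without HCC 4, from 2.52. Directions turned for small differences. The edgeR value of miR-208a-3p was -0.74 with limma, -1.16 and -1.19 with DESeq2's own and spike-in size factors, -0.61 with the block and -1.30 to 1.10 without 1 mouse. That of miR-499-5p was -0.0552 with limma, -0.56 with DESeq2 and spike-in size factors, -0.0265 with the block and -0.60 to 1.50 without 1 mouse. The level difference of miR-133a-3p was -0.13 in CPM, -0.24 with TMM and -0.27 to 0.63 without 1 mouse, that of miR-133b-3p -0.0727 with TMM and -0.0354 to 0.78 without 1 mouse, and that of miR-499-5p 0.0301 with UniSP4 alone, 0.0237 with similar libraries averaged and -0.62 to 0.20 without 1 mouse. The ratio of miR-206-3p to miR-1a-3p was 0.0281 with similar libraries averaged and -0.36 to 0.28 without 1 mouse. With TMM the correlation of miR-133a-5p with miR-208b-3p was -0.13, and those of miR-206-3p with miR-208a-3p and miR-499-5p -0.0335 and -0.0650. That of miR-206-3p with miR-208b-3p was 0.0576 with similar libraries averaged. Without HCC 4 and on the spike-in scale, miR-208b-3p correlated with miR-1a-3p at -0.39, miR-133a-3p at -0.44, miR-133a-5p at -0.43, miR-133b-3p at -0.46, miR-208a-3p at -0.37 and miR-499-5p at -0.12. In CPM without HCC 4 these were, in the same order, -0.11, -0.05, -0.45, -0.13, 0.39 and 0.60. The causes were not tested. Over the F2 libraries 6 pairs were above 0.5 on either scale.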

Other observations

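miR-1b-5p, made opposite to a miR-1a gene, kept a nearly fixed proportion to miR-1a-3p in the C3H mice, with a ratio of UMIs of 0.117 to 0.185 and a median of 0.143 over 13 mice. In the 53 F2 libraries the ratio ran from 0.253 to 42.6, with a median of 0.781, and miR-1b-5p exceeded miR-1a-3p in 18 of them. The largest ratio came from a library with 1149 UMIs of miR-1b-5p and 27 of miR-1a-3p, and the next from one with 292 and 14. No explanation was tested.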
